A study of Homo sapiens with 4 samples.

Results

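The thrombospondins and their receptors CD36 and CD47 were followed in hematopoietic cultures of the human embryonic stem cell line H1, an established line. The set was taken by gene symbol and held 7 genes, THBS1, THBS2, THBS3, THBS4, COMP, CD36 and CD47, of the 58365 rows in the deposited table, with 1 row for each symbol. It was proposed with the behaviour of THBS1 between treated and control libraries already known, so the differences of the 7 genes between the groups are given as a description and without a test. The cells received activinA (40 ng/ml) and BMP4 (50 ng/ml) for 2 days, then VEGF (40 ng/ml) and bFGF (50 ng/ml) for 3 days. For the last 3 days VEGF and bFGF were continued either with SB431542, a small molecule that blocks the type I receptors for TGFβ and activin, or without it. All cells were collected at day 8, after the same early exposure to activinA and BMP4. The control group, called DMSO in the sample titles, and the SB431542 group (SB) had 2 libraries each. The labels do not say whether the libraries of a group came from separate cultures, so p-values measure only the spread between these libraries. Per the study, the RNA came from cells positive for CD31 (an endothelial and blood cell surface protein), a selection that the labels do not mention.

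Thrombospondins are large secreted calcium-binding glycoproteins that sit in the matrix and bind receptors on the cell surface. THBS1 and THBS2 form trimers and carry type 1 repeats, through which they engage CD36 and restrain angiogenesis, and THBS1 can activate latent TGFβ. THBS3, THBS4 and COMP form pentamers and lack these repeats. CD36 is a scavenger receptor that takes up fatty acids and oxidized lipoproteins, and CD47 is a widely expressed receptor for THBS1 that also signals to phagocytes through SIRPA. THBS1 is stored in platelet granules, and CD36 is found on platelets, monocytes and developing red cells.

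The 250 bases before the annotated start sites of THBS1 and CD47 are shown because these were the members with the higher levels in the SB libraries among those above 1 FPKM (fragments scaled to transcript length and to the total of mapped fragments). Both stretches are from RefSeq on GRCh38.p14, are written 5′ to 3′ on the strand of the gene, and have every match to a searched motif in capitals. The THBS1 stretch is chr15:39580829-39581078 on the plus strand, directly before the start of the THBS1 row. The CD47 stretch is chr3:108091032-108091281 on the minus strand, and its start site lies 6 bases outside the CD47 row.
THBS1: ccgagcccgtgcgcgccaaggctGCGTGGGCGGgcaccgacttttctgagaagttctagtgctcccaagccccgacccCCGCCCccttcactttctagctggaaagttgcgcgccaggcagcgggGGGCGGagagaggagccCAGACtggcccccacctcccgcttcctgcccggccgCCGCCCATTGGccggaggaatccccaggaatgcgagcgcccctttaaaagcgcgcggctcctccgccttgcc
CD47: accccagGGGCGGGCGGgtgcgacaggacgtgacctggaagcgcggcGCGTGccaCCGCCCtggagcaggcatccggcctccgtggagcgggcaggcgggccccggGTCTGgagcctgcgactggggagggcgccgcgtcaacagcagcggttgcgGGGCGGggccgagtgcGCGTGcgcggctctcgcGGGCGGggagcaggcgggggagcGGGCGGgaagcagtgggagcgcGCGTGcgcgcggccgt

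Motifs were searched on both strands of these stretches, with positions counted back from the start site, and their frequency was taken over 34788 distinct RefSeq stretches of the same 250-base length. The letters CAGAC, found in sites bound by SMAD proteins, occurred 1 time in THBS1 (position -108) and 1 time in CD47 (position -144), and were present in 38% of all stretches. The SP1 letters GGGCGG occurred 4 times in THBS1 and 6 times in CD47, where those at positions -243 and -239 overlapped, against a presence in 42.6% of stretches. In THBS1, the EGR1 letters GCGNGGGCG (8.41% of stretches) began at position -227, where they overlapped the AHR letters GCGTG (32.2%) and 1 of the SP1 matches. GCGTG occurred 3 times in CD47. The NF-Y letters CCAAT (32%) occurred 1 time in THBS1, at position -66, and 0 times in CD47. The USF letters CACGTG (6.31% of stretches) and the AP-1 letters TGANTCA (6.59%) had 0 matches in both. The same held for the core letters of GATA factors (GATA, 45.7%) and for those of the basal promoter box, TATAAA (10.8%). The THBS1 stretch was 69.6% G or C with 24 CG pairs and the CD47 stretch 79.6% with 39, against medians of 58% and 11. These matches describe letters and are not evidence of binding.

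FPKM summed to between 570844 and 612614 per library, and 14183 to 14372 rows reached 1 FPKM in a library. Since no counts are given, absolute depth is unknown. Steps shared by low single-exon genes put the shallowest library near 75.6% of the deepest, but only 5.38% to 12.6% of the genes compared lay on the shared step. The share of mitochondrial genes was 5.88% and 6.64% in the libraries numbered 1 and 9.92% and 10.2% in those numbered 2, so values within each number are given beside the pooled ones. Of 14909 genes with a mean of at least 1 FPKM in at least 1 group, 20 passed an adjusted p of 0.05 in limma between SB and DMSO libraries (0.134%), 4 higher (0.0268%) and 16 lower (0.107%). The median difference over these genes was 0.04 on the log2(FPKM + 1) scale, 40.9% were higher and 30.6% lower with SB431542 in both numbers. The groups did not overlap in 37.5% of these genes, with SB above DMSO in 21.5% and below it in 16%. An unadjusted p under 0.05 in limma was reached by 1485 of the 14909 genes. The counts given below for each list, of groups apart, of direction in both numbers and of unadjusted p, are to be set beside these shares. The lists, like the members, were chosen with earlier results of these data known. Their p-values and counts are therefore not independent support. The endothelial markers summed to 1317 and 1264 FPKM with DMSO and to 1375 and 1291 FPKM with SB431542, with 0 of the 8 at 0, 0 past the threshold in limma and 1 at an unadjusted p under 0.05. PECAM1, which encodes CD31, was at 197 and 163 FPKM with DMSO and at 182 and 153 FPKM with SB431542, and the groups overlapped. CLDN5 (1.04), CDH5 (-0.28) and VWF (-0.17), a tight junction protein, an adherens junction protein and a clotting factor carrier, had the smallest p, with limma adjusted p of 0.318, 0.710 and 0.881.

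Of the 7 members, 3 passed the filter of 1 FPKM (THBS1, THBS3 and CD47) and 4 did not (THBS2, THBS4, COMP and CD36). THBS1 and CD47 were higher with SB431542 and THBS3 was lower, each without overlap between the groups (3 of 3, and 37.5% of all tested genes). Applied to the members, the limma rule counted 1 of the 3 (THBS1), and 0.134% of all tested genes. Since the members were chosen from this contrast, nothing is read from either count. The call itself was lost without any 1 of the 4 libraries and without the filter. In these bulk samples a difference in the number of cells of a type and a difference in RNA per cell cannot be told apart.

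THBS1 (ENSG00000137801.10, chromosome 15, 39581079 to 39599466, plus strand), the trimeric thrombospondin that inhibits angiogenesis, stood at 17.2 and 16.1 FPKM with DMSO and at 78.9 and 71.6 FPKM with SB431542. Both SB libraries lay well above both DMSO libraries. The means were 16.6 ± 0.788 and 75.3 ± 5.20 FPKM (SD, n = 2 each), a 4.53-fold higher FPKM with SB431542. On the log2(FPKM + 1) scale the difference was 2.11 (SE 0.16), and it was 2.14 within number 1 and 2.09 within number 2. Among the 14909 genes ranked from the highest difference, THBS1, chosen for its rise, was at place 30. Its level moved from percentile 65.0 and 63.6 of these genes in the DMSO libraries to percentile 91.9 in each SB library.

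THBS3 (ENSG00000169231.13, chromosome 1, 155195588 to 155209051, minus strand), a pentameric thrombospondin of skeletal tissue, went the other way. It stood at 13.8 and 14.9 FPKM with DMSO and at 10.6 and 9.27 FPKM with SB431542. The groups did not overlap, but the distance between them was small beside that of THBS1. The means were 14.4 ± 0.730 and 9.94 ± 0.954 FPKM (SD, n = 2 each), 1.44-fold lower with SB431542. The log2(FPKM + 1) difference was -0.49 (SE 0.17), with -0.35 within number 1 and -0.63 within number 2.

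The other thrombospondins were under 1 FPKM throughout. THBS2 (chromosome 6, 169215780 to 169254044), the second trimeric member, was listed at 0.0969 and 0.0847 FPKM with DMSO and at 0.0828 and 0.0627 FPKM with SB431542. Its groups did not overlap, but they were separated by less than the spread within either group. THBS4 (chromosome 5, 79991311 to 80083287), a pentameric member of tendon and muscle, was listed at 0.670 and 0.374 FPKM with DMSO and at 0.466 and 0.801 FPKM with SB431542. Its groups overlapped, and the direction differed between the numbers (-0.19 and 0.39 on the log2(FPKM + 1) scale). COMP (chromosome 19, 18782773 to 18791314), the cartilage oligomeric matrix protein, was listed at 0 in each DMSO library, and its SB values were 0.270 and 0.0177 FPKM. The COMP value rests mainly on SB replicate 1, and no fold is given against libraries listed at 0.

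**Figure D1:**
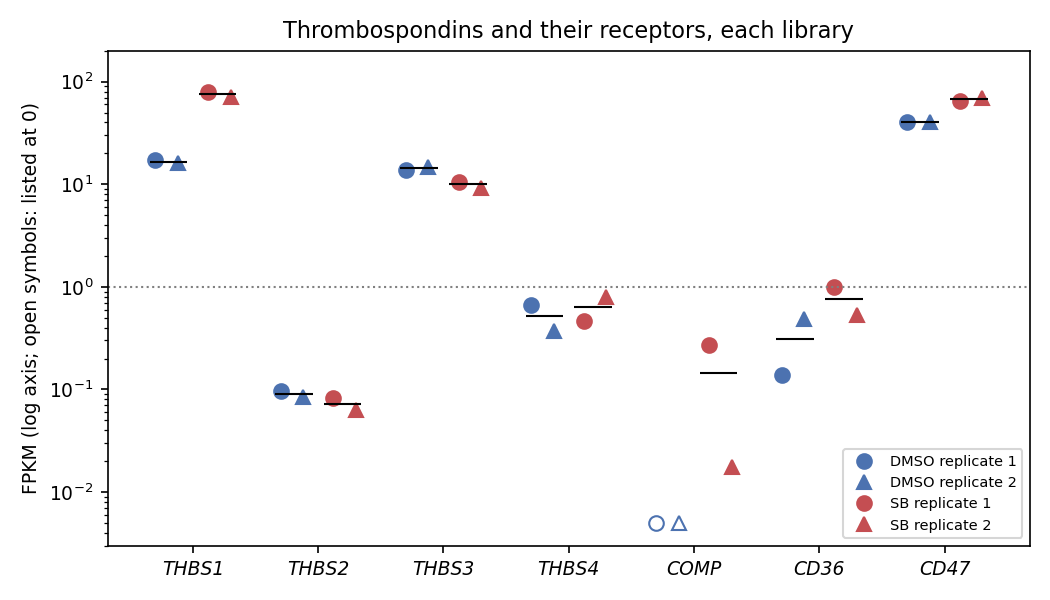
FPKM (log axis) of the 7 members in each library, with DMSO in blue, SB in red, circles for replicate 1, triangles for replicate 2, black lines for group means, open symbols for values listed at 0 and a dotted line at 1 FPKM. THBS1, CD47 and THBS3 lie above the line, THBS1 and CD47 with SB above DMSO and THBS3 with SB below DMSO, while the other 4 genes lie under it.

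The make-up of the thrombospondin transcripts differed between the groups. The FPKM of the 5 thrombospondins summed to 31.8 and 31.4 with DMSO and to 90.4 and 81.7 with SB431542. THBS1 made up 54.0% and 51.2% of this sum with DMSO and 87.3% and 87.6% with SB431542. THBS3 made up 43.6% and 47.4% with DMSO and 11.8% and 11.3% with SB431542. The mean of THBS3 itself was 1.44-fold lower, and its share also depends on THBS1, which enters the same sum. THBS2, THBS4 and COMP together gave 0.907% to 2.41% in any library. The ratio of THBS1 to THBS3 was 1.24 and 1.08 with DMSO, where the 2 genes were close, and 7.43 and 7.72 with SB431542. FPKM is scaled per transcript length, so these levels were set side by side between genes, but the accuracy of that scaling was not tested.

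**Figure D2:**
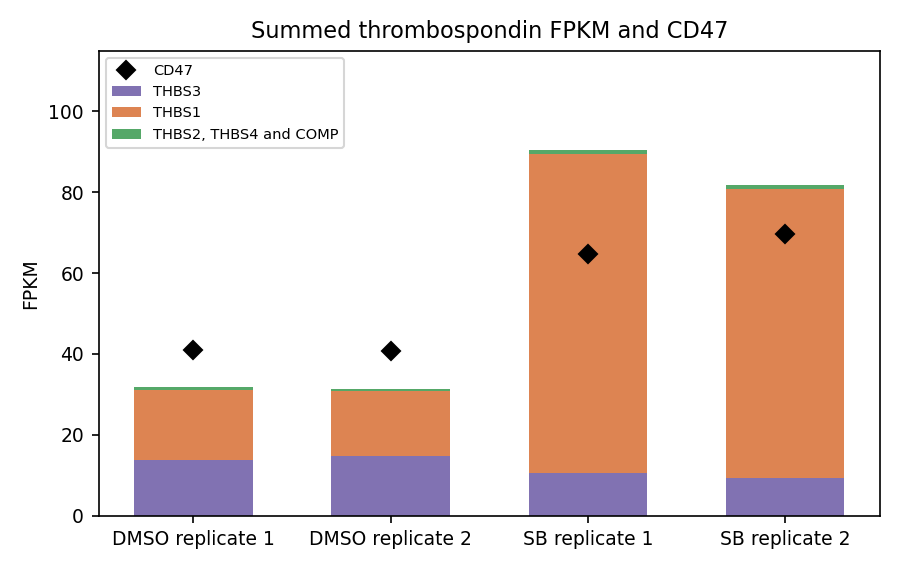
Stacked bars of the FPKM of THBS3, THBS1 and the sum of THBS2, THBS4 and COMP in each library, with CD47 as black diamonds on the same linear axis. The bars reach 31.8 and 31.4 FPKM with DMSO and 90.4 and 81.7 FPKM with SB431542, and the THBS1 segment accounts for the difference while the THBS3 segment is smaller with SB431542.

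Between the receptors, CD47 was far more abundant than CD36. CD47 (ENSG00000196776.14, chromosome 3, 108043298 to 108091025, minus strand) stood at 40.9 and 40.7 FPKM with DMSO and at 64.8 and 69.8 FPKM with SB431542. The groups did not overlap, and the DMSO libraries were nearly equal. The means were 40.8 ± 0.0874 and 67.3 ± 3.51 FPKM (SD, n = 2 each), 1.65-fold higher with SB431542. The log2(FPKM + 1) difference was 0.71 (SE 0.16), with 0.65 and 0.76 within numbers 1 and 2. CD36 (ENSG00000135218.17, chromosome 7, 80369575 to 80679277, plus strand) was listed at 0.139 and 0.484 FPKM with DMSO and at 0.993 and 0.528 FPKM with SB431542. Its SB libraries lay above its DMSO libraries, but the DMSO library numbered 2 was close to the SB library with the same number, with log2(FPKM + 1) differences of 0.81 in number 1 and 0.042 in number 2. The FPKM of CD47 was 65.3 to 294 times that of CD36, a ratio that rests on CD36 values under 1 FPKM.

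By mean FPKM, the order in the DMSO libraries was CD47, THBS1, THBS3, THBS4, CD36, THBS2 and COMP. THBS4 and CD36 overlapped there, while each other pair of neighbours in the order did not. In the SB libraries the order was THBS1, CD47, THBS3, CD36, THBS4, COMP and THBS2. THBS1 and CD47 were near each other there, with THBS1 at 1.22 and 1.03 times the FPKM of CD47. CD36 overlapped THBS4 and COMP overlapped THBS2, while the other neighbours did not overlap. With DMSO the FPKM of THBS1 was 0.420 and 0.394 times that of CD47.

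The genes with the nearest profile to each expressed member were found by the Euclidean distance between centred log2(FPKM + 1) values over the 4 libraries, a likeness that rests largely on the same difference between groups. For THBS1 they were CXCL6 (distance 0.188), a chemokine, OAS1 (0.210), an interferon-induced enzyme, and CSF1R (0.230), the receptor for the macrophage growth factor. For CD47 they were ARHGAP15 (0.0196), a regulator of the GTPase Rac, ADGRG5 (0.0353), an adhesion receptor, and ATG10 (0.0468), an autophagy enzyme. For THBS3 they were LRRC4C (0.0423), a netrin ligand, CDON (0.0486), a hedgehog co-receptor, and TENM3 (0.0568), a teneurin. CXCL6, OAS1, ARHGAP15 and ADGRG5 were under 1 FPKM with DMSO and LRRC4C with SB431542, where the pseudocount of 1 narrows differences.

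THBS1 is itself known as a gene that TGFβ can induce, and other genes that respond to TGFβ were set beside it. Of 28 tested response genes, 24 were lower with SB431542 in both numbers and 3 were higher in both. The median log2(FPKM + 1) difference was -0.81, with -0.89 and -0.76 within numbers, beside the 0.04 over all tested genes. TGFBI, a secreted matrix protein induced by TGFβ, fell from a mean of 30.4 ± 0.919 FPKM to one of 4.52 ± 0.588 FPKM (SD, n = 2 per group, log2 difference -2.51, limma adjusted p 0.0365). It was the 1 gene of the list that passed, and 18 had an unadjusted p under 0.05. TGFBI did not pass without any 1 of the libraries. FN1 (fibronectin) had a difference of -2.10 and COL1A1 (a fibrillar collagen chain) of -2.46, with 0.0646 as the limma adjusted p of both. COL1A1 and COL3A1 of this list are also among the mesenchymal markers. The highest difference in the list was 0.11, and that of THBS1, chosen for its rise, was 2.11. The set was proposed with THBS1 already known to rise against the trend of TGFβ targets. Nothing is therefore read from this contrast.

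The store and activation of TGFβ itself, a process in which THBS1 takes part, was described by 17 genes. Of the 14 tested, 0 passed in limma and 6 had an unadjusted p under 0.05, and 11 were lower and 3 higher in both numbers. LTBP2 and LTBP3 of this list are also among the TGFβ response genes above. The median difference was -0.33 (-0.37 and -0.29 within numbers). It depended on single libraries, with -0.13 without DMSO replicate 1, -0.58 without DMSO replicate 2, -0.53 without SB replicate 1 and -0.20 without SB replicate 2. MMP2, a gelatinase that can release TGFβ, stood at 93.8 and 72.5 FPKM with DMSO and at 28.3 and 24.4 FPKM with SB431542 (log2 difference -1.61, limma adjusted p 0.0969). NRROS, which tethers latent TGFβ on myeloid cells, stood at 39.9 and 32.6 FPKM with DMSO and at 68.9 and 57.7 FPKM with SB431542 (0.79, limma adjusted p 0.291). TGFB2, a TGFβ ligand, stood at 8.96 and 7.58 FPKM with DMSO and at 3.51 and 1.05 FPKM with SB431542 (-1.60, limma adjusted p 0.308). TGFB1, named after its values were seen, differed more between the numbers (454.9 and 202 FPKM with DMSO) than between the groups (381 and 183 FPKM with SB431542).

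Other proteins that bind thrombospondins at the cell surface went in both directions. All 18 listed genes were tested, with 0 past the threshold in limma and 7 at an unadjusted p under 0.05. SB lay above DMSO in 6 and below it in 5, beside 21.5% and 16% of all tested genes. The median was -0.02, but it was above 0 without any 1 of the 4 libraries. LRP1, which takes up thrombospondin from the surface, was at 23.1 and 15.6 FPKM with DMSO and at 6.89 and 5.57 FPKM with SB431542 (log2 difference -1.47, limma adjusted p 0.167). ITGA3, a laminin-binding integrin chain that also binds THBS1, was at 17.0 and 13.6 FPKM with DMSO and at 7.16 and 6.88 FPKM with SB431542 (-1.02, limma adjusted p 0.192). ITGB3, the β chain shared by the vitronectin receptor and the platelet fibrinogen receptor, had means of 72.7 ± 3.19 FPKM with DMSO and 130.0 ± 5.23 FPKM with SB431542 (SD, n = 2 each, log2 difference 0.83, limma adjusted p 0.200). Its possible partner chains, named after their values were seen, lay on opposite sides of 0, as ITGAV had -0.55 and -0.52 within numbers and ITGA2B, a megakaryocyte marker, 0.66 and 0.61.

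Downstream of the receptors, the list for CD47 signaling held the SIRP partners, the phosphatases they recruit and genes of nitric oxide and cGMP. Of 9 tested genes, 0 passed in limma and 1 had an unadjusted p under 0.05, with 6 higher and 0 lower in both numbers. The median was 0.27, and it was 0.15 without SB replicate 2 and 0.17 without SB replicate 1. Without the filter it was 0.17 over the 11 genes not at 0 in all libraries. The gene with an unadjusted limma p under 0.05 was PTPN6, a phosphatase of blood cells. It was at 21.6 and 18.1 FPKM with DMSO and at 56.4 and 43.9 FPKM with SB431542 (log2 difference 1.29, limma adjusted p 0.151). GUCY1B3, a subunit of soluble guanylate cyclase, had 0.51 (limma adjusted p 0.70) and PTPN11, a ubiquitous phosphatase, 0.27 (limma adjusted p 0.762). SIRPA, the binding partner of CD47 and named after its values were seen, was at 4.88 and 4.50 FPKM with DMSO and at 5.36 and 5.40 FPKM with SB431542. SIRPG was listed at 0 in each library.

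The list for lipid handling with CD36 had 8 tested genes, of which 0 passed in limma and 1 had an unadjusted p under 0.05. Its median was 0.21, but it was -0.027 without the filter, -0.0030 without DMSO replicate 2 and 0.042 without SB replicate 1. The smallest p was that of GPIHBP1, which anchors lipoprotein lipase on capillary endothelium, at 4.11 and 2.58 FPKM with DMSO and at 1.81 and 0.886 FPKM with SB431542 (log2 difference -0.89, limma adjusted p 0.457). FABP5, a fatty acid carrier, had 0.32 (limma adjusted p 0.634) and LYN, a kinase that acts with CD36, 0.27 (limma adjusted p 0.765).

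Relatives of the thrombospondins were mostly lower with SB431542. Of 20 other matricellular genes 10 were tested, 0 passed in limma and 6 had an unadjusted p under 0.05, with 9 lower in both numbers and a median of -0.58. Over all 20 genes, without the filter, the median was -0.21. CTGF (CCN2), a growth factor-binding matricellular protein, was at 4.99 and 6.03 FPKM with DMSO and at 0.594 and 0.543 FPKM with SB431542 (log2 difference -2.05, limma adjusted p 0.0753). CTGF is also among the TGFβ response genes above. IGFBP7, which is secreted by endothelium, had -1.87 (limma adjusted p 0.0948) and CYR61 (CCN1), an angiogenic relative of CTGF, -1.43 (limma adjusted p 0.139). Of 30 other genes whose proteins carry type 1 repeats 17 were tested, 0 passed in limma and 8 had an unadjusted p under 0.05, with 12 lower and 4 higher in both numbers and a median of -0.31. UNC5B, a netrin receptor of endothelium, was at 208 and 141 FPKM with DMSO and at 72.2 and 50.8 FPKM with SB431542 (-1.49, limma adjusted p 0.205). ADAMTS4, which cleaves aggrecan, had -1.08 (limma adjusted p 0.264) and ADGRB2, an adhesion receptor of the brain angiogenesis inhibitor family, -1.12 (limma adjusted p 0.316).

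Enzymes that glycosylate type 1 repeats were present in each library. Of the 4 genes, 0 passed in limma and 0 had an unadjusted p under 0.05. POFUT2, which adds O-fucose to the repeats, was at 34.0 and 27.7 FPKM with DMSO and at 23.7 and 21.8 FPKM with SB431542 (log2 difference -0.42, limma adjusted p 0.571). DPY19L3, a C-mannosyltransferase, had 0.27 and B3GLCT, which extends the fucose, -0.09, with limma adjusted p of 0.823 and 0.967.

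Of 11 transcription factors known to act on THBS1, 0 passed in limma and 1 had an unadjusted p under 0.05. That factor was ID1, known as a repressor of THBS1, at 470.2 and 505 FPKM with DMSO and at 179 and 187 FPKM with SB431542 (log2 difference -1.41, limma adjusted p 0.0803). ID1 is also among the TGFβ response genes above. YAP1, a coactivator of the Hippo pathway, had -0.41 (limma adjusted p 0.592) and NR4A1, an orphan nuclear receptor, -0.73 (limma adjusted p 0.780). The median of the 11 was -0.02, with -0.18 within number 1 and 0.03 within number 2, and it was 0.14 without DMSO replicate 1 and -0.17 without DMSO replicate 2.

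**Figure D3:**
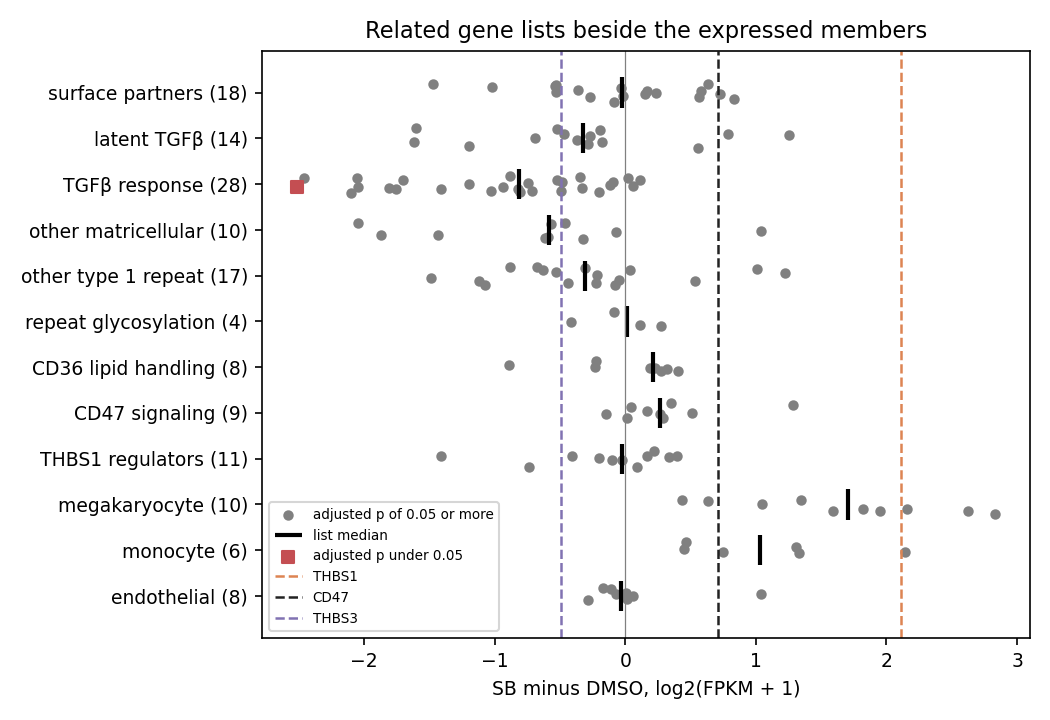
Difference between SB and DMSO on the log2(FPKM + 1) scale (horizontal axis) for each tested gene of 12 lists (rows, with the number of tested genes), with black bars for list medians, a red square for the gene past an adjusted p of 0.05 and dashed lines for THBS1, CD47 and THBS3. The response, latent TGFβ and matricellular lists lie mostly left of 0, the megakaryocyte and monocyte lists right of it, and the THBS1 line at 2.11 is to the right of each gene of the first 9 lists.

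Markers of megakaryocytes and of monocytes, cells that can carry THBS1 or CD36, had higher values with SB431542, while those of erythroid cells, which can also carry CD36, were mostly lower. All 10 megakaryocyte and platelet markers had SB above DMSO, beside 21.5% of all tested genes. Of the 10, 0 passed the threshold in limma and 9 had an unadjusted p under 0.05. Their FPKM summed to 247 and 241 with DMSO and to 649 and 749 with SB431542, with 0 of the 10 at 0 in all libraries, and ITGA2B among them is also a surface partner. They had a median difference of 1.70. GP1BB (2.16), a platelet adhesion receptor chain, PPBP (2.83) and PLEK (1.95), a granule chemokine and a signaling protein of platelets, had limma adjusted p of 0.0753, 0.0798 and 0.0803. The difference in THBS1 of 2.11 lay within the range of these 10 markers (0.43 to 2.83).

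All 6 tested monocyte markers had SB above DMSO, beside 21.5% of all tested genes. Of the 6, 0 passed the threshold in limma and 4 had an unadjusted p under 0.05. Their differences ran from 0.45 to 2.14, a range that also held the 2.11 of THBS1. The 8 listed markers summed to 92.7 and 105.6 FPKM with DMSO and to 214 and 233 FPKM with SB431542. CSF1R (2.14) and TYROBP (1.31), both of myeloid cells, had limma adjusted p of 0.0753 and 0.0948, and FCER1G (1.33), an Fc receptor chain, 0.144. CD14, a defining monocyte marker, was under 1 FPKM in all libraries, at 0.0636 and 0.0625 FPKM with DMSO and at 0.169 and 0.157 FPKM with SB431542. The part of these cells in the levels of THBS1, CD47 or CD36 was not tested.

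The 10 erythroid markers, from cells that can carry CD36, summed to 1031 and 1100 FPKM with DMSO and to 695 and 808 FPKM with SB431542, with 0 past the threshold in limma and 5 at an unadjusted p under 0.05. ALAS2 (-2.06), HBZ (-2.12) and RHAG (-1.29), which serve heme synthesis, oxygen transport and the red cell membrane, had limma adjusted p of 0.0605, 0.0910 and 0.169. In both numbers 7 of the 10 were lower and 2 were higher, with a median of -0.50. GYPB (0.20), a surface glycoprotein, KLF1 (0.08), an erythroid transcription factor, and HBG1 (0.02), a fetal globin, were named after their values were seen and had overlapping groups. The 8 mesenchymal markers, from cells that secrete thrombospondins, summed to 242 and 193 FPKM with DMSO and to 81.2 and 74.4 FPKM with SB431542. Of the 5 tested, 0 passed in limma, 4 had an unadjusted p under 0.05 and 5 were lower in both numbers, with COL1A1 (-2.46), COL3A1 (-1.03) and PDGFRA (-0.82) leading by p. The 8 endoderm and liver markers summed to 293.5 and 336 FPKM with DMSO and to 31.5 and 35.2 FPKM with SB431542, and 4 of them fell (APOA1, AFP, TTR and APOA2; limma adjusted p 0.0201 to 0.0365). Each of these 4 calls was lost without any 1 of the libraries. The CD31 selection that the study describes would remove mesenchymal and endoderm cells. COL1A1 and APOA1 were above 1 FPKM in all 4 libraries, while the mesenchymal markers DCN, TCF21 and MYH11 were under 1 FPKM in all 4. The endoderm markers SERPINA1 and FOXA2 were under 1 FPKM in both SB libraries. DCN, TCF21, MYH11, SERPINA1 and FOXA2 were named after their values were seen. The part of mesenchymal and endoderm cells in the THBS3 level was not tested.

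**Figure D4:**
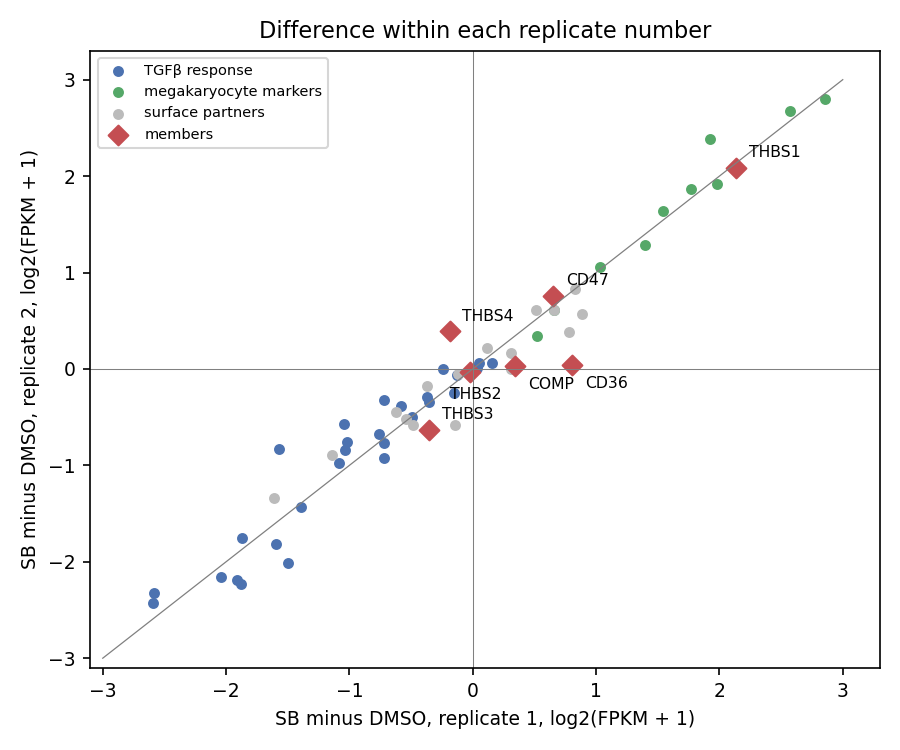
Difference between SB and DMSO on the log2(FPKM + 1) scale within replicate number 1 (horizontal axis) and number 2 (vertical axis), with a line of equality, for the 7 members (red diamonds), the TGFβ response genes (blue), the megakaryocyte markers (green) and the surface partners (grey). THBS1, at 2.14 and 2.09, lies near the line among the megakaryocyte markers, and monocyte markers are not plotted. CD47 and THBS3 also keep their direction in both numbers, and CD36 and THBS4 lie off the line.

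Genes that overlap the members on the genome could share reads with them, since strand use in counting is not stated. Within the THBS1 span, the non-coding rows AC037198.2 (733 bases of overlap, same strand) and AC037198.3 (526 bases, opposite strand) were at 0.382 to 1.48 FPKM and 1.59 to 6.23 FPKM. Both had SB above DMSO (log2 differences 0.66 and 1.16, limma adjusted p 0.472 and 0.209). FSIP1, which overlaps 11110 bases on the opposite strand, was at 0.0676 to 0.163 FPKM with overlapping groups, so that the THBS1 level far exceeded that of each overlapping gene. AC234582.1, a non-coding row that overlaps THBS3 by 9908 bases on the opposite strand, was at 1.85 and 1.40 FPKM with DMSO and at 1.37 and 0.761 FPKM with SB431542, below DMSO as THBS3 was (log2 difference -0.36, limma adjusted p 0.770). MTX1, which overlaps THBS3 by 353 bases on the opposite strand, was at 14.6 and 13.0 FPKM with DMSO and at 15.8 and 13.2 FPKM with SB431542. BX322234.1 overlaps THBS2 by 23786 bases on the opposite strand. It was at 0.350 and 0.307 FPKM with DMSO and at 0.146 and 0.221 FPKM with SB431542. These values exceeded those of THBS2 in each library, with SB below DMSO as for THBS2. AC112184.1 overlaps THBS4 by 312 bases on the same strand. It was at 0.833 and 0 FPKM with DMSO and at 0 and 1.88 FPKM with SB431542, highest in the libraries where THBS4 was highest. CTD-2201I18.1, which overlaps THBS4 by 30914 bases on the opposite strand, was at 0.0170 to 0.0477 FPKM. CD47 was overlapped by 0 annotated genes.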

How the data were processed

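RNA-seq of 4 libraries (2 DMSO and 2 SB) was analysed from the FPKM table the authors deposited, with groups and replicate numbers taken from the sample titles. The submitters' processing notes name BWA, Bowtie and RSEM without versions, and hg19. However, GENCODE 29 (GRCh38) held 95.5% of the identifiers at an equal version, 99.97% of those at an equal position, so coordinates are given on GRCh38, counted from 1. The members and gene lists were chosen with earlier results of these data known.

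Values were transformed to log2(FPKM + 1), which understates differences of low genes. Genes with a mean of at least 1 FPKM in at least 1 group were fitted with limma 3.58.1 in R 4.3.3 (empirical Bayes with trend, group as the only term), and p-values, two-sided, were corrected over all of these genes (Benjamini-Hochberg, threshold 0.05). The fit was run on simulated data with 200 changed genes. The simulated libraries were independent, so this run does not cover the likeness of same-numbered libraries described below. The study names Student's t test in general and no per-gene test for RNA-seq. Named genes are the members, list genes past the threshold, the 3 genes with the smallest p in each list and the 3 nearest profiles per expressed member. An exact 0 may be a failed estimate (0 of 10 housekeeping genes were at 0). Alternatives were a replicate block, other filters, scalings and pseudocount, and removal of each library.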

Additional observations from a re-analysis of the deposited data

How the results depend on the processing

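Directions of THBS1, CD47 and THBS3 held under the 8 alternatives run for each, with log2 differences of 2.04 to 2.18, 0.65 to 0.76 and -0.58 to -0.40. Most of these alternatives could not have changed a direction. The replicate block leaves the difference as it is. Removing a library or changing the pseudocount keeps the sign where the groups do not overlap. Among the members under 1 FPKM, the pseudocount of 0.1 gave -0.15 for THBS2, 1.06 for COMP and 1.15 for CD36, and quantile normalization gave 0.0717 for THBS2, whose direction changed. Without 1 library, THBS2 ranged from -0.038 to -0.011, COMP from 0.025 to 0.35, CD36 from 0.23 to 0.62 and THBS4 from -0.047 to 0.25. The alternative of summing rows gave no value, as each member had 1 row.

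The 20 genes past the threshold became 1564 with the replicate block (820 higher, 744 lower), 31 with quantile normalization and 0 without the filter (2739 at an unadjusted p under 0.05), and 0 to 16 without 1 library (0 without DMSO replicate 1, with 1101 at an unadjusted p under 0.05, and 7 without SB replicate 1). Deviations of same-numbered libraries from their group means correlated at 0.528 across genes, and the mitochondrial share also went with the number. Same-numbered libraries thus had more in common than a number, but the labels state no pairing and there were only 2 pairs. Under the replicate block, 8 surface partners, 9 latent TGFβ genes, 18 TGFβ response genes, 7 matricellular genes, 7 type 1 repeat genes, 2 genes each of the CD36, CD47 and THBS1 regulator lists, and 2 endothelial, 9 megakaryocyte, 5 monocyte, 6 erythroid, 4 mesenchymal and 8 endoderm markers passed. The same rule then counted 2 of the 3 tested members, THBS1 and CD47, beside 1564 of all 14909 tested genes. Since the members were chosen from this contrast, nothing is read from this count either.

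With quantile normalization 2 response genes, 1 erythroid and 1 mesenchymal marker passed, and upper-quartile scaling gave the same counts of 2, 1 and 1. The filter of 5 FPKM in 2 libraries let 1 erythroid marker pass. Without the filter, 0 response genes and 0 endoderm markers passed, and without 1 library the counts were 0 to 0 for both. Causes were not tested. The unknown depth leaves the counting error of COMP, THBS2, THBS4 and CD36 unknown, and 2 libraries a group limit all tests.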

Other observations

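Around THBS3, 14 genes within 100000 bases reached the filter, and 0 passed in limma, with log2 differences from -0.80 to 0.27. EFNA1, a ligand of Eph receptors 60731 bases away and chosen after its values were seen, was at 180.2 and 183 FPKM with DMSO and at 96.8 and 111 FPKM with SB431542 (-0.80, limma adjusted p 0.219). Around CD47 the 1 tested neighbour was IFT57, a cilium protein, at 0.13 (limma adjusted p 0.923).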
